A study of Arabidopsis thaliana with 30 samples.

Results

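Leaves of Arabidopsis thaliana jazD plants sprayed with coronatine were compared with leaves sprayed with water (mock), each harvested 3 h after the spray. The libraries were 3 coronatine (replicates 1 to 3) and 3 mock libraries (replicates 1 to 3) of the 30 in the series, which also holds 0, 1, 12 and 24 h. Every gene with at least 1 TPM in at least 3 of the 6 libraries was included, 17480 of 27655 genes in the table (63.2%). All plants, mock plants included, were jazD in the Col-0 ecotype, 26 days old, grown at 20 °C with 16 h of light and 8 h of darkness. The spray was 5 µM coronatine in water, or water alone. The labels name the genotype and no alleles. The line is generally known to be disrupted at 10 of 13 JAZ loci, and JAZ8, JAZ11 and JAZ12 are taken as intact on that basis. No wild-type leaves were analysed here, so each response described below is that of leaves already short of JAZ repressors. Whether replicates are separate plants is not labelled, so a p-value reflects only how far libraries within groups differ, which can be technical spread. That spread was estimated for each gene over all 10 groups of the series, while each SD below is of 3 libraries.

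Coronatine is a bacterial toxin that mimics jasmonoyl-isoleucine, the active jasmonate hormone. It joins the receptor COI1 to JAZ proteins, the JAZ proteins are degraded, and MYC2 and related bHLH activators are released at the genes they bind, many of them through the G-box element of promoters. In leaves of this species the hormone is known for turning on defence metabolism (glucosinolates, volatile terpenes, amines, anthocyanins), for holding back growth, and, later, for loss of chlorophyll. The time of 3 h asks which of these programmes had changed transcripts before leaves would lose their green colour. Leaf colour and pigment content were not measured in the files used here.

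The 6 libraries formed 2 tight groups. Spearman correlations across genes were 0.991 to 0.992 within the coronatine libraries and 0.988 to 0.992 within the mock libraries, but 0.834 to 0.849 between them. Values are TPM, a transcript abundance scaled to the same total in every library. They are also divided by transcript length, so levels can be set side by side between genes. TPM keeps no record of depth, so the depth of each library is unknown and no counting interval can be given. Between 15945 and 16256 genes reached 1 TPM in the coronatine libraries, against 17283 to 17486 in the mock libraries. The 10 most abundant genes of a library took 12.8 to 13.2% of TPM in coronatine leaves, against 13.7 to 14.7% in mock leaves. Markers of leaf mesophyll were high in all 6 libraries, summing to 26624 to 30867 TPM in coronatine leaves and 33927 to 37276 TPM in mock leaves. The 5 flower markers AP1, AP3, PI, AG and SEP3 stayed at or under 0.36 TPM in every library. Whole leaves were measured, so fewer cells of a type and less RNA per cell cannot be told apart.

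Under the rule used here more genes fell than rose at 3 h, an excess that depends on the scaling. The largest changes were rises. Here a rise or fall needs a limma call in the same direction, at an adjusted p under 0.05, on TPM as deposited and on TPM after rescaling by TMM (trimmed mean) factors. Under that rule 2552 genes rose (14.6%) and 6520 fell (37.3%), together 51.9% of those tested. With a log2 difference of at least 1 in size on TPM as deposited as well, 7.18% rose and 22.6% fell. The rule matters because the median gene stood −0.50 on the log2 scale in coronatine relative to mock leaves on TPM as deposited, and at 0.00 after TMM rescaling. TPM as deposited alone gave 2552 genes higher and 12251 lower, and TMM-rescaled TPM alone gave 6486 higher and 6520 lower. The risers are thus as many as the first scaling gave and the fallers as many as the second, so the excess of falls comes with the rule. On TMM-rescaled TPM rises and falls were nearly equal in number, and the authors' deposited table gave 6101 genes higher and 6447 lower. Of the 2552 risers, 132 had a log2 difference of at least 4 and 494 one of 2 to 4. Of the 6520 that fell, 14 reached −4 and 606 lay between −2 and −4. Log2 differences are those of log2(TPM + 1) on TPM as deposited, coronatine minus mock, and they understate the change of low genes. In 2510 genes (14.4%) all 3 coronatine values stood above all 3 mock values, and in 12071 (69.1%) below. The authors' deposited table for 3 h shared the direction of 2529 of the 2529 risers and of 6340 of the 6482 fallers for which it gave an adjusted p, at its own threshold of 0.05, and called none of them the opposite way.

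**Figure D1:**
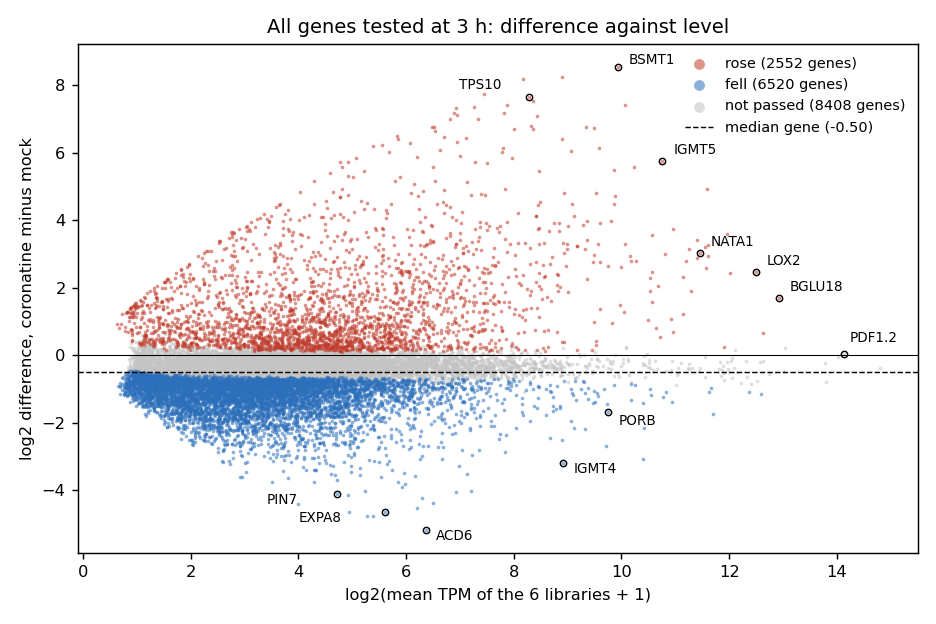
Each point is 1 of the 17480 genes tested, with its level over the 6 libraries on the x axis (log2 of mean TPM + 1) and its log2 difference, coronatine minus mock, on the y axis. Red points rose, blue points fell and grey points did not pass on both scalings, and the dashed line marks the median gene at −0.50. Rises reach 8.53 (BSMT1), while the deepest fall among the labelled genes is −5.17 (ACD6).

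Levels at the JAZ loci, which define the genotype, come first. JAZ8 (AT1G30135), taken as intact, read 722, 675 and 671 TPM in coronatine leaves, against 17.7, 11.3 and 15.7 TPM in mock leaves. JAZ12 (AT5G20900) read 205, 207 and 232 TPM in coronatine leaves, against 91.3, 82.6 and 86.5 TPM in mock leaves, and JAZ11 (AT3G43440) 12.9, 11.3 and 15.3 TPM in coronatine leaves, against 13.6, 12.4 and 14.2 TPM in mock leaves. JAZ8 and JAZ12 rose and their groups did not overlap, whereas the JAZ11 groups overlapped and did not pass. Of 12 JAZ loci tested, 10 rose and 0 fell. Transcripts also came from loci taken as disrupted, such as JAZ9 (AT1G70700) at 877 ± 40.6 TPM in coronatine leaves, against 87.7 ± 15.2 TPM in mock leaves, and JAZ10 (AT5G13220) at 217 ± 16.7 TPM in coronatine leaves, against 34.7 ± 5.33 TPM in mock leaves (mean ± SD, n = 3, as for every mean below). Such reads can be partial, so these values do not show intact transcripts. JAZ4 stayed under 1 TPM in all 6 libraries and was not tested. The log2 differences were 5.46 ± 0.16 for JAZ8 and 1.3 ± 0.06 for JAZ12 (± SE), with limma adjusted p of at most 2.1e-16, and in each the groups did not overlap.

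The 25 largest rises named here are of genes with at least 10 TPM in the higher group, a RefSeq symbol in the reference table and no overlap between the groups. The lack of overlap given for these 25, and for the 25 largest falls, was therefore set by the rule and is no added support. BSMT1 (AT3G11480), which makes methyl salicylate, read 2113, 1847 and 1878 TPM in coronatine leaves, against 6.58, 1.87 and 5.65 TPM in mock leaves. JMT (AT1G19640), which makes methyl jasmonate, read 667, 663 and 724 TPM in coronatine leaves, against 4.18, 3.59 and 4.44 TPM in mock leaves. That every coronatine value of these genes stood above every mock value is a condition of the rule. MES7 (AT2G23560), of the methyl esterase family that splits such methyl esters, rose in the same leaves, at 649 ± 47.7 TPM in coronatine leaves, against 5.31 ± 0.901 TPM in mock leaves (log2 difference 6.69 ± 0.22 SE, limma adjusted p = 4.5e-19). Removal of active jasmonates was represented by CYP94C1 (AT2G27690), an oxidase of jasmonoyl-isoleucine, at 492 ± 43.9 TPM in coronatine leaves, against 7.77 ± 1.81 TPM in mock leaves. ST2A (AT5G07010), a sulfotransferase of hydroxylated jasmonate, read 396, 438 and 481 TPM in coronatine leaves, against 5.88, 4.27 and 5.56 TPM in mock leaves. ILL5 (AT1G51780), of the family of hydrolases that release hormones from amino acid conjugates, had 341, 328 and 366 TPM in coronatine leaves, against 1.52, 0.08 and 0.57 TPM in mock leaves. On the log2 scale the differences were 8.53 ± 0.45 for BSMT1, 7.08 ± 0.18 for JMT, 6.14 ± 0.18 for ST2A and 7.74 ± 0.30 for ILL5 (± SE), with limma adjusted p of at most 4.9e-15, and no coronatine value fell within the mock range.

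Other enzymes among the 25 act on several kinds of substrate. TPS03 (AT4G16740), a synthase of the monoterpene ocimene, read 528, 508 and 496 TPM in coronatine leaves, against 4.25, 3.34 and 4.34 TPM in mock leaves. CYP82G1 (AT3G25180), which turns the product of TPS04 into a volatile homoterpene, read 210.2, 203 and 199 TPM in coronatine leaves, against 1.65, 0.72 and 1.72 TPM in mock leaves. HMT3 (AT3G22740), a methyltransferase that makes methionine from homocysteine, rose to 939 ± 56.7 TPM in coronatine leaves, against 10.1 ± 0.717 TPM in mock leaves (log2 difference 6.40 ± 0.12 SE, limma adjusted p = 6.2e-23). MSRB7 (AT4G21830), a methionine sulfoxide reductase, stood at 1284 ± 220.0 TPM in coronatine leaves, against 11.2 ± 3.89 TPM in mock leaves, and AAS (AT2G20340), an aromatic aldehyde synthase acting on aromatic amino acids, at 1516 ± 101 TPM in coronatine leaves, against 20.5 ± 1.38 TPM in mock leaves. DIR5 (AT1G64160), a dirigent-like protein gene, read 182 ± 27.99 TPM in coronatine leaves, against 0.887 ± 0.623 TPM in mock leaves, and GCL1 (AT5G65280), a GCR2-like gene, 435 ± 14.2 TPM in coronatine leaves, against 5.78 ± 0.795 TPM in mock leaves. IGMT5 (AT1G76790), the methyltransferase of the 1-methoxy indole glucosinolate, was the most abundant of the 25, with 3567, 3156 and 3496 TPM in coronatine leaves, against 69.9, 60.7 and 55.5 TPM in mock leaves. In none of these genes did the coronatine and mock values overlap, as the rule required. Differences (log2) were 6.69 ± 0.23 for TPS03, 6.47 ± 0.30 for CYP82G1 and 5.76 ± 0.18 for IGMT5 (± SE), with limma adjusted p of at most 5.0e-16, the coronatine and mock values being fully apart in each.

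Regulators among the 25 were fewer. NAC025 (AT1G61110), a NAC factor gene, read 250.1, 216 and 234 TPM in coronatine leaves, against 0.32, 0.36 and 1.39 TPM in mock leaves. MYB24 (AT5G40350), a MYB gene best known from stamens, read 208, 181 and 140.5 TPM in coronatine leaves, against 0.64, 0.5 and 0.69 TPM in mock leaves. RAP2.6 (AT1G43160), an ethylene response factor gene, rose to 271 ± 20.0 TPM in coronatine leaves, against 2.37 ± 1.53 TPM in mock leaves, and the protein kinase gene MAPKKK21 (AT4G36950) to 194 ± 5.66 TPM in coronatine leaves, against 2.00 ± 1.015 TPM in mock leaves. TRFL4 (AT3G53790) stood at 81.9 ± 2.27 TPM in coronatine leaves, against 0.137 ± 0.0321 TPM in mock leaves. The remaining members were TPS10, TPS02, TPS04, CYP94B1, CYP71B37 and GSTU6. All 25 had also risen at 1 h and were still higher at 12 h. Fitted log2 differences were 7.17 ± 0.17 for NAC025 and 6.77 ± 0.19 for MYB24 (± SE), with limma adjusted p of at most 1.8e-20, without overlap between the groups.

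Promoter letters were read for the risers and fallers because the bHLH activators of the pathway are known to bind the G-box, CACGTG. In the 250 bases before the annotated start, CACGTG stood in 321 of 2541 promoters of genes that rose (12.6%), in 383 of 6520 of genes that fell (5.87%) and in 1310 of all 17379 read (7.54%). Among the 132 genes with a log2 rise of at least 4 it stood in 24 (18.2%). The related letters AACGTG, or CACGTT on the other strand, stood in 15.1% of risers' promoters, 5.51% of fallers' and 7.55% of all. In the 100 bases next to the start, CACGTG stood in 7.71% of risers' promoters, 3.34% of fallers' and 4.48% of all. Comparison motifs differed less. GCCGCC stood in 1.85% of risers' promoters and 1.64% of fallers' (2.01% of all), and AAAATATCT in 3.03% and 2.68% (2.63% of all). Each motif was searched on both strands, CACGTG reads the same on both, and a window could hold more than 1 motif. Of the 25 largest rises 5 had CACGTG in this window, and of the 25 largest falls 4, namely FRO6, FRO7, OPT3 and BZIP61. These are matches of letters, not binding sites. Promoters of 3 regulators among the largest rises and of 2 enzymes of the tryptophan and glucosinolate route are printed to show where the element lies. They are RefSeq sequence of TAIR10.1, 5′ to 3′ on the gene's strand, ending at the base before the annotated start, with CACGTG in capitals.
NAC025: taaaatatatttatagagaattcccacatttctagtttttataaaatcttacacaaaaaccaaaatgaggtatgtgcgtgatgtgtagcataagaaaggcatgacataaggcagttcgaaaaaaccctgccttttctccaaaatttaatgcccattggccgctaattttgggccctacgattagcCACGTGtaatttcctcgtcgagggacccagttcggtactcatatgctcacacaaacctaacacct
RAP2.6: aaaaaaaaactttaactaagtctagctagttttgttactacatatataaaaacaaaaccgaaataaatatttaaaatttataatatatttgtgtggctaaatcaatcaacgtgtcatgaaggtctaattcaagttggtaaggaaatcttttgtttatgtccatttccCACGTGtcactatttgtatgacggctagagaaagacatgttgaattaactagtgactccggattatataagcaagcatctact
MAPKKK21: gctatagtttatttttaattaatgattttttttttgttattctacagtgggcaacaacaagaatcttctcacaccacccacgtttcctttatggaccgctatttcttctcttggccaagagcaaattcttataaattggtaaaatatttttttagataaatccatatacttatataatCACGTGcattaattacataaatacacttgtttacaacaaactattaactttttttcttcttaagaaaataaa
SUR1: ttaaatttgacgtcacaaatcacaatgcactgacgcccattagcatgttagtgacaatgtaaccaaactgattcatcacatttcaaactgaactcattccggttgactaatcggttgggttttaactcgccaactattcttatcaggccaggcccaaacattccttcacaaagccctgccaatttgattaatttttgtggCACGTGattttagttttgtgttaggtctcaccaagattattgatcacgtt
IGPS: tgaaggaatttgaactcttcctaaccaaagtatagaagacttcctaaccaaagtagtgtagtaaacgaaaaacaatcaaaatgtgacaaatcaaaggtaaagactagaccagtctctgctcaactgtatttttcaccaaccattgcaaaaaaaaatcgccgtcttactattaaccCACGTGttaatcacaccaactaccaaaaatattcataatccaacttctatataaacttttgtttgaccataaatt
These windows are chr1:22516352-22516601 on the forward strand for NAC025, chr1:16263555-16263804 on the forward strand for RAP2.6, chr4:17423954-17424203 on the reverse strand for MAPKKK21, chr2:8880441-8880690 on the reverse strand for SUR1 and chr2:1530898-1531147 on the forward strand for IGPS. The element begins 65, 83, 72, 50 and 75 bases before the start in these 5 genes, in that order.

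The 25 largest falls, chosen by the same rule, covered genes of varied function. ACD6 (AT4G14400), an ankyrin protein gene of salicylate-linked defence, read 2.59, 2.77 and 5.43 TPM in coronatine leaves, against 177, 148 and 152 TPM in mock leaves. GASA6 (AT1G74670), a gibberellin-regulated peptide gene, read 1.81, 2.79 and 1.43 TPM in coronatine leaves, against 78.0, 77.2 and 84.9 TPM in mock leaves. FRO6 (AT5G49730) and FRO7 (AT5G49740), neighbouring ferric reductase genes, fell to 5.13 ± 0.727 TPM in coronatine leaves, against 139.7 ± 6.01 TPM in mock leaves, and to 6.08 ± 1.11 TPM in coronatine leaves, against 84.6 ± 3.32 TPM in mock leaves. OPT3 (AT4G16370), an oligopeptide-family transporter that loads iron into the phloem, read 8.23 ± 0.718 TPM in coronatine leaves, against 97.3 ± 3.04 TPM in mock leaves. Very long chain fatty acid synthases were among them, KCS12 (AT2G28630) at 0.44 ± 0.104 TPM in coronatine leaves, against 29.4 ± 2.78 TPM in mock leaves, and KCS8 (AT2G15090) at 3.09 ± 0.559 TPM in coronatine leaves, against 46.5 ± 4.06 TPM in mock leaves. Immune genes were LURP1 (AT2G14560) at 23.2 ± 12.1 TPM in coronatine leaves, against 255 ± 53.2 TPM in mock leaves, CNGC11 (AT2G46440), a cation channel gene, at 2.76 ± 0.618 TPM in coronatine leaves, against 47.9 ± 4.11 TPM in mock leaves, and CRK10 (AT4G23180), a receptor kinase gene, at 3.59 ± 0.723 TPM in coronatine leaves, against 42.3 ± 1.94 TPM in mock leaves. Light and flowering regulators were RAV2 (AT1G68840) at 5.30 ± 0.261 TPM in coronatine leaves, against 63.2 ± 1.44 TPM in mock leaves, PKS1 (AT2G02950), a phytochrome kinase substrate, at 0.583 ± 0.0971 TPM in coronatine leaves, against 13.6 ± 1.55 TPM in mock leaves, and COL1 (AT5G15850) at 1.92 ± 0.0755 TPM in coronatine leaves, against 25.3 ± 1.76 TPM in mock leaves. TCL2 (AT2G30424), a small MYB gene that restrains trichomes, read 0.593 ± 0.323 TPM in coronatine leaves, against 20.2 ± 1.92 TPM in mock leaves, and BGAL1 (AT3G13750), a wall galactosidase gene, 22.6 ± 3.39 TPM in coronatine leaves, against 229 ± 16.2 TPM in mock leaves. The others were EXPA8, PIN7, IGMT4, BEE2 and BES1, given with their groups below, and HIPL2, DRT100, BZIP61, CSLE1 and PUP7. Of these 25, 5 (ACD6, CNGC11, LURP1, CSLE1 and IGMT4) had not passed at 1 h, and all 25 were lower at 12 h as well. limma gave log2 differences of −5.17 ± 0.45 for ACD6 and −4.77 ± 0.19 for GASA6 (± SE), with limma adjusted p of at most 1.2e-10, and in each the groups did not overlap.

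The gene groups below run from hormone and defence metabolism to growth, cell type markers and the chloroplast. The share of all tested genes that rose (14.6%) or fell (37.3%) is the background for each count, and a list with a share near it says nothing particular about its members. Lists and members were chosen with earlier results of these data known. A share beyond the background therefore describes the listed genes and is no independent support for a pathway. Every list median is given against the median of all genes, −0.50. Lack of overlap, given below for single genes, has a background too. On TPM as deposited, all 3 coronatine values stood below all 3 mock values in 69.1% of all genes tested, and above in 14.4%. Lack of overlap therefore adds little to a fall.

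**Figure D2:**
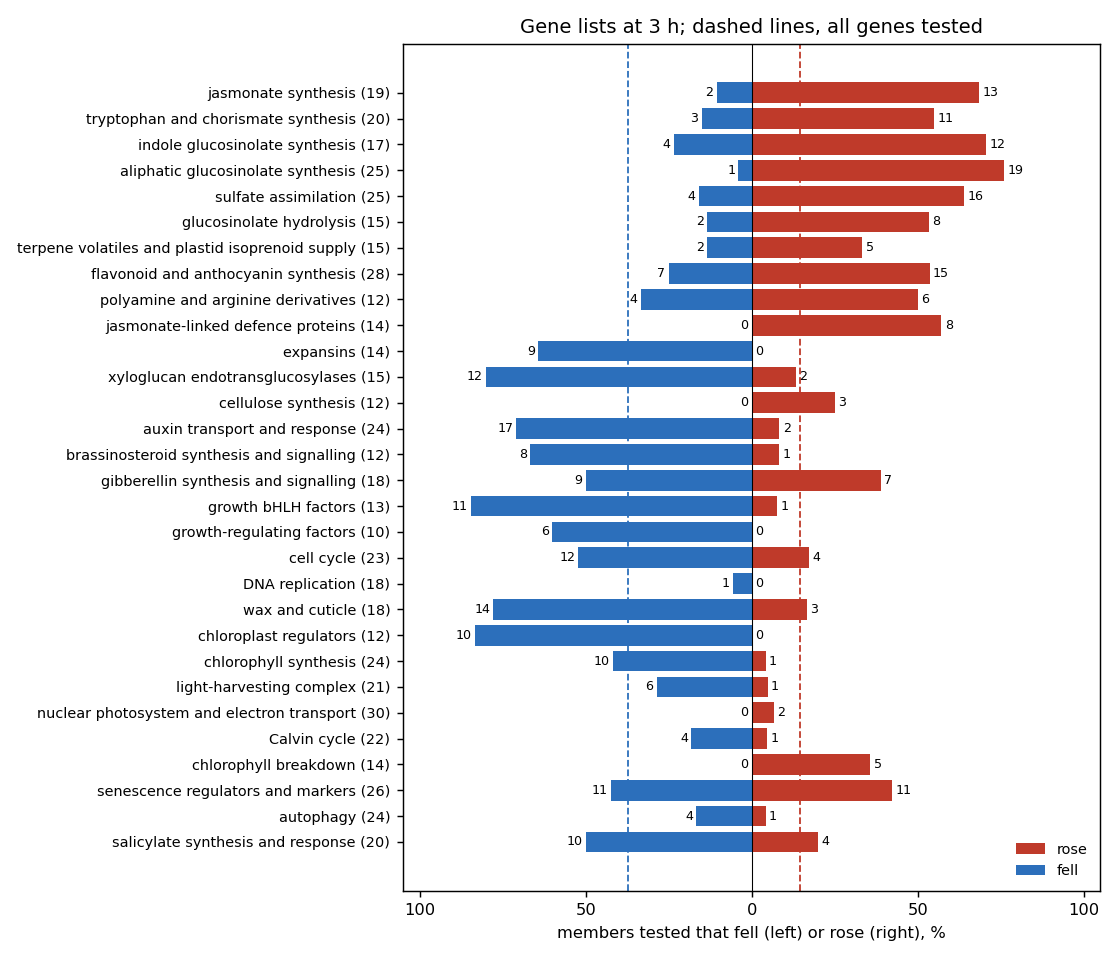
Bars give the percentage of tested members of each gene list that fell (left, blue) or rose (right, red) in coronatine relative to mock leaves, with the number of genes at the bar ends and the number tested in brackets. Dashed lines mark all genes tested, 37.3% fallen and 14.6% risen. Glucosinolate, sulfate and jasmonate lists extend to the right of the risen line, and expansin, xyloglucan, auxin, bHLH, wax and chloroplast regulator lists extend to the left of the fallen line.

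The genes that make jasmonate itself rose. Of 19 tested, 13 rose and 2 fell, with a median of 1.91, and on TPM as deposited alone 6 fell. From the plastid end, the desaturase gene FAD7 (AT3G11170) read 590.3, 519 and 594 TPM in coronatine leaves, against 133, 140.4 and 139 TPM in mock leaves. The lipoxygenases LOX3 (AT1G17420) and LOX4 (AT1G72520) rose to 337 ± 14.6 TPM in coronatine leaves, against 25.04 ± 3.60 TPM in mock leaves, and to 309 ± 7.79 TPM in coronatine leaves, against 21.5 ± 3.95 TPM in mock leaves. AOC1 (AT3G25760), an allene oxide cyclase, read 5325, 5191 and 5622 TPM in coronatine leaves, against 627, 524 and 616 TPM in mock leaves, although the AOC genes are close copies among which reads can be split uncertainly. In the peroxisome, OPR3 (AT2G06050) read 1315, 1290.5 and 1120.5 TPM in coronatine leaves, against 86.0, 66.5 and 82.9 TPM in mock leaves, and ACX1 (AT4G16760), an acyl-CoA oxidase, 170.0 ± 6.51 TPM in coronatine leaves, against 51.2 ± 4.70 TPM in mock leaves. The other 6 members fell or did not pass. The desaturase FAD3 (AT2G29980), of the endoplasmic reticulum, fell to 27.8 ± 3.51 TPM in coronatine leaves, against 170.2 ± 2.98 TPM in mock leaves (log2 difference −2.58 ± 0.08 SE, limma adjusted p = 8.1e-20), and JAR1 (AT2G46370), which joins jasmonate to isoleucine, read 23.9 ± 1.46 TPM in coronatine leaves, against 34.2 ± 3.55 TPM in mock leaves, and did not pass. The other fall, of the thiolase gene PKT3, was lost without coronatine replicate 2 or 3 or mock replicate 1 or 3, at log2 differences of −0.76 to −0.65. Summed over the list, TPM reached 26641 to 27893 in coronatine leaves, against 4882 to 5053 in mock leaves. These differences, as log2 values, were 2.04 ± 0.07 for FAD7, 3.19 ± 0.11 for AOC1 and 3.97 ± 0.14 for OPR3 (± SE), with limma adjusted p of at most 2.8e-18, and no coronatine value fell within the mock range.

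Of the defence proteins known to follow jasmonate, vegetative storage and lectin genes rose while plant defensins did not pass. Of 14 tested, 8 rose and 0 fell, with a median of 1.88. The list also holds the methyltransferase genes BSMT1 and JMT, which are 2 of the 8 and no defence proteins. VSP2 (AT5G24770), a vegetative storage protein, read 3667, 3845 and 3832 TPM in coronatine leaves, against 897, 779 and 618 TPM in mock leaves. CORI3 (AT4G23600), an aminotransferase-like lyase named for its induction by coronatine, read 5483, 5574 and 5937 TPM in coronatine leaves, against 651, 546 and 586 TPM in mock leaves, and JR1 (AT3G16470), a jacalin lectin, 5306, 4620.4 and 4950.0 TPM in coronatine leaves, against 533, 495 and 381 TPM in mock leaves. THI2.1 (AT1G72260), a thionin, rose to 101 ± 8.10 TPM in coronatine leaves, against 11.8 ± 2.26 TPM in mock leaves. Of the branch that also needs ethylene, PDF1.3 (AT2G26010), a defensin, read 12861 ± 1956 TPM in coronatine leaves, against 15114 ± 1636 TPM in mock leaves, and PR4 (AT3G04720) 1833 ± 164 TPM in coronatine leaves, against 2379 ± 152 TPM in mock leaves, and neither passed. The PDF1.2 family consists of near-identical copies, so the split of reads between its members is uncertain. The contrasts came to log2 values of 2.32 ± 0.22 for VSP2, 3.25 ± 0.13 for CORI3 and 3.41 ± 0.16 for JR1 (± SE), with limma adjusted p of at most 4.2e-10, the coronatine and mock values being fully apart in each.

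Genes of the route from chorismate to tryptophan rose at its committed steps. Of 20 tested, 11 rose and 3 fell, with a median of 0.51, and on TPM as deposited alone 7 fell. DHS1 (AT4G39980), the entry enzyme of the shikimate pathway, read 1530.5, 1419 and 1469.5 TPM in coronatine leaves, against 245, 226 and 239.7 TPM in mock leaves, a log2 difference of 2.63 ± 0.08 (limma adjusted p = 8.1e-20). Its sister DHS2 (AT4G33510) read 121 ± 4.56 TPM in coronatine leaves, against 153 ± 5.35 TPM in mock leaves, and did not pass. ASA1 (AT5G05730) and ASB1 (AT1G25220), the subunits of anthranilate synthase that commit chorismate to tryptophan, rose to 359 ± 4.52 TPM in coronatine leaves, against 97.5 ± 2.62 TPM in mock leaves, and to 197 ± 19.8 TPM in coronatine leaves, against 81.0 ± 3.27 TPM in mock leaves. CM1 (AT3G29200), which sends chorismate towards phenylalanine and tyrosine instead, fell to 4.68 ± 0.235 TPM in coronatine leaves, against 17.1 ± 0.13 TPM in mock leaves (log2 difference −1.67 ± 0.05 SE, limma adjusted p = 3.4e-19). TRP1 (AT5G17990), the next enzyme on the tryptophan arm, read 659.9, 571 and 659 TPM in coronatine leaves, against 136, 120.0 and 123 TPM in mock leaves. IGPS (AT2G04400) rose to 316 ± 19.0 TPM in coronatine leaves, against 106 ± 7.00 TPM in mock leaves, TSA1 (AT3G54640) to 802 ± 53.0 TPM in coronatine leaves, against 219 ± 12.4 TPM in mock leaves, and TSB1 (AT5G54810), the most abundant of the list, to 2342 ± 115 TPM in coronatine leaves, against 629 ± 21.4 TPM in mock leaves. Among the 3 isomerase genes PAI2 (AT5G05590) rose to 117 ± 9.37 TPM in coronatine leaves, against 33.7 ± 0.0929 TPM in mock leaves, while PAI1 (AT1G07780) fell to 5.28 ± 0.805 TPM in coronatine leaves, against 10.9 ± 1.17 TPM in mock leaves, and PAI3 (AT1G29410) to 1.52 ± 0.301 TPM in coronatine leaves, against 3.86 ± 0.215 TPM in mock leaves. The PAI genes are near-identical copies, so the split between them is uncertain. Of the steps between DHS and chorismate, EPSPS (AT2G45300) read 29.4 ± 0.42 TPM in coronatine leaves, against 44.8 ± 1.54 TPM in mock leaves, and did not pass. TRP1 differed by 2.31 ± 0.09 (log2, SE, limma adjusted p = 4.3e-17), without overlap between the groups.

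Of the genes of indole glucosinolates, the sulfur-rich defence compounds made from tryptophan, those of the core pathway were raised and those of side branches split. Of 17 tested, 12 rose and 4 fell, with a median of 1.22. The activator MYB34 (AT5G60890) read 140.2, 163 and 135 TPM in coronatine leaves, against 11.3, 9.79 and 10.9 TPM in mock leaves. Its relative MYB51 (AT1G18570) read 3.10, 3.27 and 4.83 TPM in coronatine leaves, against 44.6, 38.1 and 35.3 TPM in mock leaves, which is −3.10 ± 0.19 SE as a log2 difference (limma adjusted p = 1.4e-13). The 2 activators thus moved in opposite directions and neither pair of groups overlapped. CYP79B2 (AT4G39950) and CYP79B3 (AT2G22330), which take tryptophan into the pathway, read 519, 558 and 532 TPM in coronatine leaves, against 59.5, 47.2 and 52.2 TPM in mock leaves for CYP79B2 and 1143, 1228 and 1115 TPM in coronatine leaves, against 73.6, 86.7 and 79.7 TPM in mock leaves for CYP79B3. Later core enzymes also rose, with CYP83B1 (AT4G31500) at 1506 ± 81.3 TPM in coronatine leaves, against 621 ± 47.2 TPM in mock leaves, SUR1 (AT2G20610), the carbon-sulfur lyase, at 296 ± 14.1 TPM in coronatine leaves, against 103 ± 2.11 TPM in mock leaves, and SOT16 (AT1G74100), the final sulfotransferase, at 601 ± 51.4 TPM in coronatine leaves, against 109 ± 5.61 TPM in mock leaves. By limma the log2 differences were 3.65 ± 0.16 for MYB34, 3.32 ± 0.10 for CYP79B2 and 3.85 ± 0.13 for CYP79B3 (± SE), with limma adjusted p of at most 1.3e-16, and in each the groups did not overlap.

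Genes that decorate the indole ring rose at the 1-position and were divided at the 4-position. CYP81F4 (AT4G37410), which hydroxylates the 1-position, read 566, 613 and 747 TPM in coronatine leaves, against 43.3, 46.1 and 23.2 TPM in mock leaves, and IGMT5, which methylates that position, rose to 3406 ± 219.8 TPM in coronatine leaves, against 62.0 ± 7.30 TPM in mock leaves (log2 difference 5.76 ± 0.18 SE, limma adjusted p = 1.4e-19). CYP81F2 (AT5G57220), which hydroxylates the 4-position and is known from immunity, read 4.01, 5.86 and 6.86 TPM in coronatine leaves, against 38.7, 31.8 and 33.2 TPM in mock leaves. IGMT2 (AT1G21120), a methyltransferase of that product, fell to 2.13 ± 0.382 TPM in coronatine leaves, against 9.55 ± 1.101 TPM in mock leaves, and its close copy IGMT4 (AT1G21130), named among the largest falls and not in the list, read 81.5, 89.8 and 110.0 TPM in coronatine leaves, against 944, 789 and 861 TPM in mock leaves. IGMT1 (AT1G21100) read 58.9 ± 6.69 TPM in coronatine leaves, against 44.6 ± 6.57 TPM in mock leaves, and did not pass, but it was called higher without mock replicate 1 (log2 difference 0.51). IGMT1, IGMT2 and IGMT4 lie in 1 cluster and are close copies, so reads can be split between them uncertainly, while IGMT5 lies apart. CYP81F1 (AT4G37430), a relative of CYP81F2, rose to 24.1 ± 2.48 TPM in coronatine leaves, against 14.3 ± 0.699 TPM in mock leaves, and CYP81F3 (AT4G37400), of the same family, fell to 1.39 ± 0.293 TPM in coronatine leaves, against 2.98 ± 0.255 TPM in mock leaves. Camalexin, an indole compound of immunity drawn from the same precursor, had 2 of 6 genes risen and 1 fallen, with 5 higher on TMM-rescaled TPM alone. The rises were of GGP1 (AT4G30530), shared with glucosinolate synthesis, and MYB15 (AT3G23250), while PAD3 (AT3G26830), its last enzyme, read 48.6 ± 7.80 TPM in coronatine leaves, against 32.3 ± 6.05 TPM in mock leaves, and did not pass. The fall, of GSTF6, was lost without mock replicate 1 (log2 difference −1.04). Coronatine minus mock, the log2 differences were 4.11 ± 0.21 for CYP81F4, −2.45 ± 0.21 for CYP81F2 and −3.20 ± 0.21 for IGMT4 (± SE), with limma adjusted p of at most 1.1e-10, and no coronatine value fell within the mock range.

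**Figure D3:**
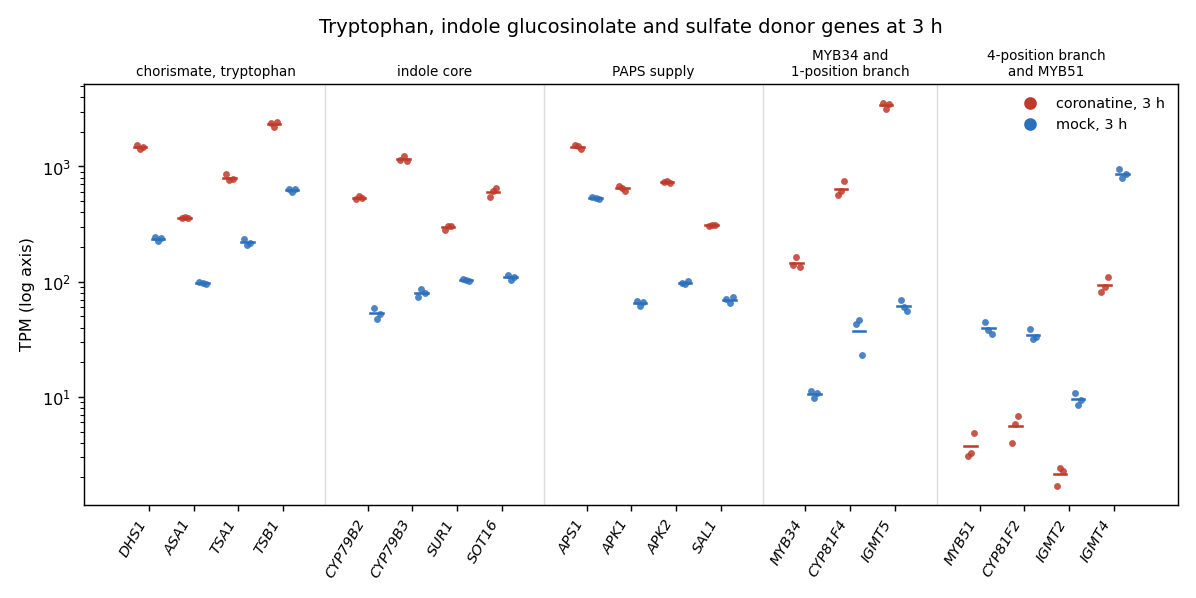
TPM of each library on a log axis for genes of tryptophan supply, the indole glucosinolate core, sulfate donor (PAPS) supply, MYB34 with the 1-position branch, and MYB51 with the 4-position branch, with coronatine libraries in red left of mock libraries in blue and a line at each mean. Coronatine points lie above mock points for every gene plotted except MYB51, CYP81F2, IGMT2 and IGMT4, where they lie below.

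Sulfate assimilation genes rose on the arm that feeds sulfotransferases and were divided on the reducing arm. Of 25 tested, 16 rose and 4 fell, with a median of 1.13. APK1 (AT2G14750) and APK2 (AT4G39940), kinases that make the sulfate donor PAPS, read 678, 648 and 611 TPM in coronatine leaves, against 68.0, 61.1 and 66.4 TPM in mock leaves for APK1 and 738, 743 and 723 TPM in coronatine leaves, against 97.2, 94.9 and 101 TPM in mock leaves for APK2. SAL1 (AT5G63980), a phosphatase that clears the spent donor, rose to 308 ± 2.96 TPM in coronatine leaves, against 69.6 ± 4.305 TPM in mock leaves (log2 difference 2.13 ± 0.07 SE, limma adjusted p = 2.4e-19). APS1 (AT3G22890), an ATP sulfurylase, rose to 1484 ± 63.2 TPM in coronatine leaves, against 534 ± 10.2 TPM in mock leaves, while APS2 (AT1G19920) fell to 20.6 ± 1.08 TPM in coronatine leaves, against 48.9 ± 3.30 TPM in mock leaves. On the reducing arm, APR1 (AT4G04610) was called higher, at 91.0 ± 5.26 TPM in coronatine leaves, against 34.4 ± 1.75 TPM in mock leaves. APR2 (AT1G62180) fell to 18.2 ± 1.16 TPM in coronatine leaves, against 57.8 ± 3.86 TPM in mock leaves. APR3 (AT4G21990) fell to 23.5 ± 2.95 TPM in coronatine leaves, against 71.3 ± 6.20 TPM in mock leaves. APR1, APR2 and APR3 all had higher means at 1 h in both groups. APR1 then averaged 126 ± 7.21 TPM in coronatine leaves and 80.8 ± 8.14 TPM in mock leaves. Of the genes of cysteine supply, SERAT2;2 (AT3G13110), a serine acetyltransferase, rose to 484 ± 24.8 TPM in coronatine leaves, against 93.2 ± 4.49 TPM in mock leaves. Of those of glutathione synthesis, GSH2 (AT5G27380) rose to 463 ± 20.1 TPM in coronatine leaves, against 173 ± 4.52 TPM in mock leaves. On TPM as deposited alone 8 members were lower. The log2 differences were 3.29 ± 0.09 for APK1 and 2.90 ± 0.08 for APK2 (± SE), with limma adjusted p of at most 7.6e-21, the coronatine and mock values being fully apart in each.

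Most genes of aliphatic glucosinolates, the relatives made from methionine, rose as well. Of 25 tested, 19 rose and 1 fell, with a median of 1.2. The exception was the activator MYB28 (AT5G61420), at 11.8 ± 1.34 TPM in coronatine leaves, against 39.4 ± 6.84 TPM in mock leaves (log2 difference −1.65 ± 0.20 SE, limma adjusted p = 5.3e-08), and its sister MYB29 (AT5G07690) read 10.2 ± 1.71 TPM in coronatine leaves, against 10.6 ± 1.63 TPM in mock leaves, and did not pass. MYB76 (AT5G07700), the third of that trio, rose to 3.31 ± 0.335 TPM in coronatine leaves, against 1.4 ± 0.221 TPM in mock leaves. Among chain elongation genes, BCAT4 (AT3G19710), the entry aminotransferase, rose to 258 ± 13.3 TPM in coronatine leaves, against 88.4 ± 13.4 TPM in mock leaves. MAM1 (AT5G23010) rose to 381 ± 21.8 TPM in coronatine leaves, against 167 ± 28.9 TPM in mock leaves. CYP79F1 (AT1G16410), the entry to the core, read 114, 124 and 127 TPM in coronatine leaves, against 35.7, 54.0 and 40.2 TPM in mock leaves. FMOGS-OX1 (AT1G65860), which oxidises the side chain sulfur, read 112, 129 and 112 TPM in coronatine leaves, against 12.4, 15.4 and 14.02 TPM in mock leaves, the largest rise of the list. SOT17 (AT1G18590) and SOT18 (AT1G74090), the final sulfotransferases, rose to 119.6 ± 6.48 TPM in coronatine leaves, against 23.4 ± 0.18 TPM in mock leaves, and to 151 ± 3.56 TPM in coronatine leaves, against 38.9 ± 5.00 TPM in mock leaves. A rise here is against mock leaves of the same time, and mock levels moved. At 1 h BCAT4 averaged 225 ± 64.6 TPM in coronatine leaves and 223 ± 33.3 TPM in mock leaves. CYP79F1 then averaged 131 ± 35.8 and 121 ± 20.5 TPM. Mock means of both genes were lower at 3 h than at 1 h or 12 h (182 and 115 TPM at 12 h). FMOGS-OX1 also had a higher mock mean at 1 h (38.5 TPM), but its coronatine mean then (71.1 TPM) was below its 3 h values. At 12 h 4 of the 25 were higher and 16 lower, against 23.7% and 42.2% of all genes. The effect at 12 h was below that at 3 h in 24 of 25 (31.8% of all genes). At 12 h CYP79F1 averaged 13.7 ± 5.44 TPM in coronatine leaves, against 115 ± 10.4 TPM in mock leaves, a change in effect of −4.52 against 3 h on the log2 scale. On the log2 scale the differences were 1.49 ± 0.32 for CYP79F1 and 2.99 ± 0.12 for FMOGS-OX1 (± SE), with limma adjusted p of at most 1.4e-04, without overlap between the groups.

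Enzymes that break glucosinolates down changed by class. Of 15 tested, 8 rose and 2 fell, with a median of 0.79, and on TMM-rescaled TPM alone 12 rose. BGLU18 (AT1G52400), a beta-glucosidase of endoplasmic reticulum bodies, was among the 10 most abundant genes in these leaves and read 12868, 11663 and 11253 TPM in coronatine leaves, against 3849.6, 3897 and 3248 TPM in mock leaves. NAI1 (AT2G22770), the bHLH factor of those bodies, read 352, 309.5 and 308 TPM in coronatine leaves, against 14.8, 9 and 9.62 TPM in mock leaves, and NAI2 (AT3G15950), a body component, rose to 283 ± 15.2 TPM in coronatine leaves, against 92.3 ± 17.8 TPM in mock leaves. NSP1 (AT3G16400), which steers breakdown to nitriles, read 3052, 3019.8 and 3447 TPM in coronatine leaves, against 536, 373 and 304 TPM in mock leaves. Myrosinase-binding MBP1 (AT1G52040) and MBP2 (AT1G52030) rose to 2651 ± 236 TPM in coronatine leaves, against 645 ± 33.0 TPM in mock leaves, and to 293 ± 17.5 TPM in coronatine leaves, against 54.0 ± 10.4 TPM in mock leaves. The classical myrosinases of myrosin cells did not pass, with TGG1 (AT5G26000) at 4114 ± 319.8 TPM in coronatine leaves, against 4380.0 ± 441 TPM in mock leaves, and TGG2 (AT5G25980) at 2941 ± 236 TPM in coronatine leaves, against 3039.8 ± 323 TPM in mock leaves. PEN2 (AT2G44490), the myrosinase of pathogen-triggered immunity, fell to 36.6 ± 4.62 TPM in coronatine leaves, against 145 ± 10.04 TPM in mock leaves (log2 difference −1.97 ± 0.08 SE, limma adjusted p = 1.1e-17), and ESM1 (AT3G14210), which favours isothiocyanates, to 382 ± 30.1 TPM in coronatine leaves, against 942 ± 69.0 TPM in mock leaves. Differences (log2) were 1.7 ± 0.10 for BGLU18, 4.77 ± 0.14 for NAI1 and 3.01 ± 0.16 for NSP1 (± SE), with limma adjusted p of at most 2.5e-14, and in each the groups did not overlap.

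Terpene volatile synthases rose, while calls for the plastid pathway that supplies their precursors depended on the scaling. All 5 synthase and oxidase genes of volatiles tested rose (TPS02, TPS03, TPS04, TPS10 and CYP82G1), by log2 differences of 6.47 to 7.63. TPS10 (AT2G24210) read 615, 653 and 590.0 TPM in coronatine leaves, against 2.63, 1.16 and 2.87 TPM in mock leaves. Of the 10 supply genes, 0 rose on both scalings, which in so few genes is near the 14.6% of all genes. DXS (AT4G15560), the entry enzyme, fell to 111 ± 2.79 TPM in coronatine leaves, against 244 ± 3.97 TPM in mock leaves (log2 difference −1.12 ± 0.06 SE, limma adjusted p = 7.2e-15), and HDS (AT5G60600) and HDR (AT4G34350), the last enzymes, read 154 ± 2.63 TPM in coronatine leaves, against 195 ± 5.49 TPM in mock leaves, and 157 ± 4.299 TPM in coronatine leaves, against 203 ± 7.90 TPM in mock leaves, and did not pass. ISPE also fell, but its call was lost without coronatine replicate 2 or 3 or mock replicate 2 or 3, at log2 differences of −0.74 to −0.71. On TMM-rescaled TPM alone 10 of the 15 rose and on TPM as deposited alone 9 fell, so the calls for the supply genes follow the scaling. GGPPS11 (AT4G36810), which makes the geranylgeranyl precursor, read 58.8 ± 3.14 TPM in coronatine leaves, against 64.5 ± 2.54 TPM in mock leaves, and did not pass.

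Some genes that turn arginine into defence amines rose, while others fell, sister genes of the same steps among them. Of 12 tested, 6 rose and 4 fell, with a median of −0.09. ARGAH2 (AT4G08870), an arginase, read 7754, 6842 and 7557 TPM in coronatine leaves, against 711, 601 and 529.9 TPM in mock leaves, while its sister ARGAH1 (AT4G08900) fell to 7.80 ± 0.843 TPM in coronatine leaves, against 15.8 ± 1.64 TPM in mock leaves. NATA1 (AT2G39030), which acetylates ornithine, read 5064, 4444 and 5599 TPM in coronatine leaves, against 624, 619.9 and 596 TPM in mock leaves. ADC2 (AT4G34710), an arginine decarboxylase, read 572, 632 and 572 TPM in coronatine leaves, against 92.7, 86.9 and 82.1 TPM in mock leaves, and its sister ADC1 (AT2G16500) fell to 74.1 ± 4.54 TPM in coronatine leaves, against 191 ± 5.41 TPM in mock leaves. SPDS2 (AT1G70310), a spermidine synthase, fell to 18.9 ± 1.18 TPM in coronatine leaves, against 45.4 ± 1.11 TPM in mock leaves. AACT1 (AT5G61160), which joins agmatine to coumaric acid, fell to 176 ± 26.2 TPM in coronatine leaves, against 602 ± 14.6 TPM in mock leaves (log2 difference −1.78 ± 0.37 SE, limma adjusted p = 1.2e-04). In the tyrosine and tocopherol list 2 of 9 rose and 4 fell. TAT3 (AT2G24850), a tyrosine aminotransferase, read 1508, 1448 and 1315 TPM in coronatine leaves, against 64.7, 39.2 and 48.7 TPM in mock leaves, and VTE2 (AT2G18950), which attaches the tocopherol tail, rose to 52.6 ± 4.81 TPM in coronatine leaves, against 23.1 ± 1.42 TPM in mock leaves. HPD (AT1G06570), between those steps, fell to 22.9 ± 3.45 TPM in coronatine leaves, against 46.7 ± 1.67 TPM in mock leaves, and on TMM-rescaled TPM alone 5 of the 9 were higher. Fitted log2 differences were 3.59 ± 0.18 for ARGAH2, 3.03 ± 0.12 for NATA1, 2.75 ± 0.12 for ADC2 and 4.81 ± 0.21 for TAT3 (± SE), with limma adjusted p of at most 1.4e-15, and no coronatine value fell within the mock range.

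Phenylpropanoid entry and anthocyanin genes diverged. Of 28 tested, 15 rose and 7 fell, with a median of 0.46. At the entry, PAL1 (AT2G37040), a phenylalanine ammonia lyase, rose to 181 ± 3.32 TPM in coronatine leaves, against 48.1 ± 4.73 TPM in mock leaves, while PAL2 (AT3G53260) fell to 18.7 ± 1.77 TPM in coronatine leaves, against 47.4 ± 1.72 TPM in mock leaves, PAL3 (AT5G04230) to 2.82 ± 0.287 TPM in coronatine leaves, against 13.6 ± 2.78 TPM in mock leaves, and C4H (AT2G30490) to 27.1 ± 0.984 TPM in coronatine leaves, against 53.5 ± 4.23 TPM in mock leaves. CHS (AT5G13930), the first flavonoid enzyme, read 719.6, 755 and 765 TPM in coronatine leaves, against 162, 154 and 108 TPM in mock leaves, and DFR (AT5G42800), which commits to anthocyanin, 128, 125 and 150.4 TPM in coronatine leaves, against 35.5, 35.1 and 18.7 TPM in mock leaves. Of the activators, MYB113 (AT1G66370) read 146, 128 and 152 TPM in coronatine leaves, against 4.89, 8.44 and 5.37 TPM in mock leaves, and PAP1 (AT1G56650) rose to 20.0 ± 2.66 TPM in coronatine leaves, against 4.33 ± 0.41 TPM in mock leaves. MYBL2 (AT1G71030), a repressor of the same genes, fell to 42.6 ± 2.93 TPM in coronatine leaves, against 157 ± 9.24 TPM in mock leaves (log2 difference −1.86 ± 0.11 SE, limma adjusted p = 2.6e-14). FLS1 (AT5G08640), which makes flavonols instead, read 6.86 ± 0.708 TPM in coronatine leaves, against 9.49 ± 1.48 TPM in mock leaves, and did not pass. At 1 h none of the enzymes from CHS on had risen, and LDOX, UGT79B1, UGT75C1, UGT78D2, 5MAT and F3PH were lower then. The effect at 3 h was above that at 1 h in 19 of the 28 genes, against 11.7% of all genes. Mock levels also differed between these times. At 1 h CHS averaged 410 ± 32.8 TPM in coronatine leaves and 452 ± 73.1 TPM in mock leaves. DFR then averaged 100 ± 15.9 TPM in coronatine leaves and 145 ± 26.0 TPM in mock leaves. From 1 to 3 h both genes thus went up in coronatine leaves and down in mock leaves. limma gave log2 differences of 2.42 ± 0.13 for CHS, 2.19 ± 0.20 for DFR and 4.33 ± 0.13 for MYB113 (± SE), with limma adjusted p of at most 2.3e-10, the coronatine and mock values being fully apart in each.

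Of the wall genes, most expansins and xyloglucan enzymes fell, and no cellulose gene did. Of 14 expansins tested, which loosen cell walls, 0 rose and 9 fell, with a median of −1.82. EXPA8 (AT2G40610) read 1.7, 3.28 and 3.60 TPM in coronatine leaves, against 104, 79.5 and 95.3 TPM in mock leaves, and EXPA1 (AT1G69530), the most abundant, 44.9, 51.4 and 56.4 TPM in coronatine leaves, against 210.1, 197 and 210.4 TPM in mock leaves. EXPA10 (AT1G26770) read 27.9 ± 1.43 TPM in coronatine leaves, against 28.3 ± 7.22 TPM in mock leaves, and did not pass. Of 15 xyloglucan endotransglucosylases, which cut and rejoin wall xyloglucan, 12 fell and 2 rose, with a median of −1.34. XTH9 (AT4G03210) read 3.72, 3.76 and 4.98 TPM in coronatine leaves, against 28.2, 45.4 and 25.5 TPM in mock leaves, while XTH24 (AT4G30270), also known as the senescence gene SEN4, read 389, 392 and 407 TPM in coronatine leaves, against 228, 198 and 158 TPM in mock leaves, and rose. XTH18 (AT4G30280) rose to 10.5 ± 0.88 TPM in coronatine leaves, against 1.23 ± 0.401 TPM in mock leaves. Of 12 cellulose synthesis genes 3 rose and 0 fell, and 10 were higher on TMM-rescaled TPM alone. CESA6 (AT5G64740), of the primary wall complex, rose to 89.5 ± 3.30 TPM in coronatine leaves, against 57.5 ± 4.66 TPM in mock leaves, and CESA3 (AT5G05170) read 108 ± 2.03 TPM in coronatine leaves, against 129 ± 9.17 TPM in mock leaves, and did not pass. These differences, as log2 values, were −4.64 ± 0.17 for EXPA8, −2.00 ± 0.07 for EXPA1, −2.69 ± 0.18 for XTH9 and 1.03 ± 0.10 for XTH24 (± SE), with limma adjusted p of at most 3.3e-10, without overlap between the groups.

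Auxin genes fell broadly. Of 24 tested, 17 fell and 2 rose, with a median of −1.40. The efflux carrier PIN7 (AT1G23080) read 1.56, 2.04 and 2.07 TPM in coronatine leaves, against 49.6, 49.7 and 46.6 TPM in mock leaves, PIN3 (AT1G70940) 3.70, 5.25 and 5.29 TPM in coronatine leaves, against 38.8, 41.2 and 37.4 TPM in mock leaves, and the influx carrier LAX1 (AT5G01240) 3.55, 4.41 and 4.01 TPM in coronatine leaves, against 42.1, 37.2 and 36.1 TPM in mock leaves. The early response genes IAA1 (AT4G14560) and IAA29 (AT4G32280) fell to 1.24 ± 0.288 TPM in coronatine leaves, against 14.2 ± 0.388 TPM in mock leaves, and to 0.307 ± 0.1 TPM in coronatine leaves, against 4.91 ± 0.37 TPM in mock leaves, and the receptor gene AFB1 (AT4G03190) to 0.71 ± 0.279 TPM in coronatine leaves, against 8.42 ± 1.45 TPM in mock leaves. Against these, the receptor gene AFB3 (AT1G12820) rose to 59.8 ± 3.07 TPM in coronatine leaves, against 27.6 ± 0.571 TPM in mock leaves. TIR1 (AT3G62980) read 39.5 ± 0.132 TPM in coronatine leaves, against 51.7 ± 1.38 TPM in mock leaves, and did not pass. At 12 h 11 of the 24 were lower and 6 higher, shares near the 42.2% and 23.7% of all genes, and the effect was above that at 3 h in 11 genes (30.3% of all genes). The contrasts came to log2 values of −4.11 ± 0.11 for PIN7, −2.82 ± 0.11 for PIN3 and −2.98 ± 0.09 for LAX1 (± SE), with limma adjusted p of at most 7.4e-18, and in each the groups did not overlap.

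Most brassinosteroid genes fell, and gibberellin genes were divided. Of 12 brassinosteroid genes 8 fell and 1 rose, with a median of −1.26. CPD (AT5G05690), a synthesis enzyme, read 28.9, 28.8 and 30.7 TPM in coronatine leaves, against 107, 112 and 115 TPM in mock leaves, the receptor gene BRI1 (AT4G39400) 9.41, 10.3 and 10.5 TPM in coronatine leaves, against 46.3, 45.4 and 39.9 TPM in mock leaves, and the transcription factor gene BES1 (AT1G19350) 4.4, 4.91 and 4.96 TPM in coronatine leaves, against 50.1, 55.6 and 46.1 TPM in mock leaves. DET2 (AT2G38050), the synthetic reductase, was the exception, at 73.0, 64.1 and 85.8 TPM in coronatine leaves, against 21.9, 20.4 and 23.0 TPM in mock leaves. Of 18 gibberellin genes 9 fell and 7 rose, with a median of −0.77. The DELLA repressors of growth split. GAI (AT1G14920) fell to 6.78 ± 0.21 TPM in coronatine leaves, against 26.9 ± 0.868 TPM in mock leaves, and RGA (AT2G01570) to 10.3 ± 0.543 TPM in coronatine leaves, against 42.5 ± 1.24 TPM in mock leaves, while RGL1 (AT1G66350) rose to 24.6 ± 2.22 TPM in coronatine leaves, against 8.18 ± 0.555 TPM in mock leaves, and RGL3 (AT5G17490) read 179, 196 and 171 TPM in coronatine leaves, against 7.81, 6.51 and 7.55 TPM in mock leaves. RGL3 became the most abundant of the 5 DELLA genes in coronatine leaves, and RGA was the most abundant in mock leaves. GA20OX1 (AT4G25420), a synthesis enzyme, fell to 0.27 ± 0.178 TPM in coronatine leaves, against 4.50 ± 0.357 TPM in mock leaves, and the receptor gene GID1B (AT3G63010) rose to 25.4 ± 2.40 TPM in coronatine leaves, against 11.5 ± 2.07 TPM in mock leaves. With a filter of 5 TPM, 4 gibberellin genes rose and 5 fell. As log2 differences these were −1.88 ± 0.05 for CPD, −2.02 ± 0.06 for BRI1, −3.16 ± 0.13 for BES1, 1.72 ± 0.08 for DET2 and 4.47 ± 0.12 for RGL3 (± SE), with limma adjusted p of at most 9.5e-16, and no coronatine value fell within the mock range.

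**Figure D4:**
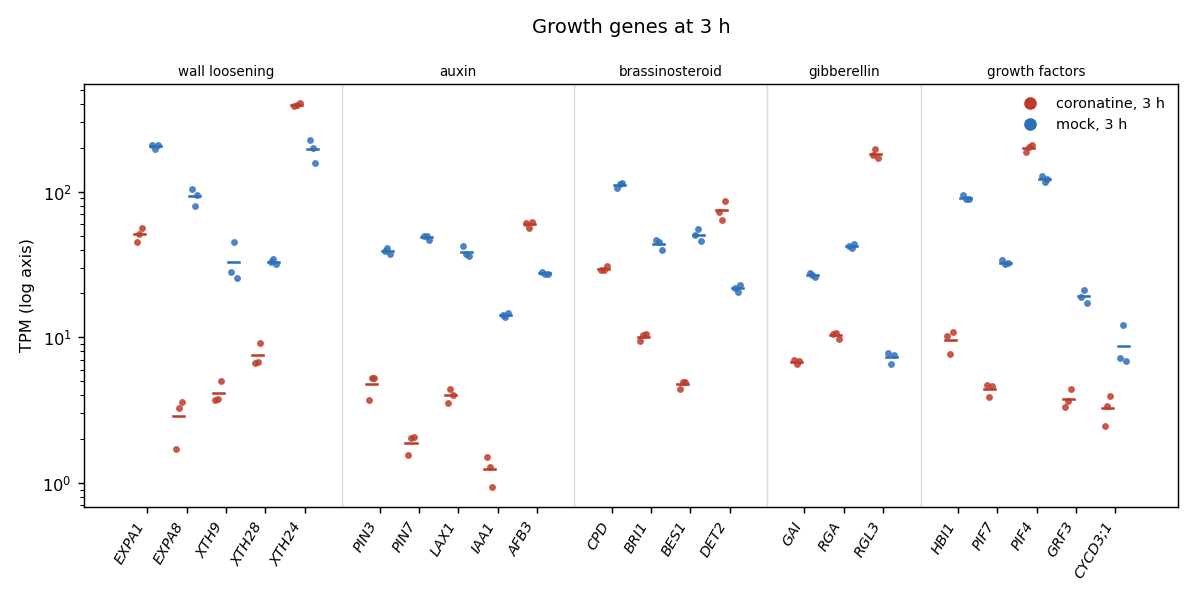
TPM of each library on a log axis for wall, auxin, brassinosteroid and gibberellin genes and growth factors, with coronatine libraries in red left of mock libraries in blue and a line at each mean. Coronatine points lie below mock points except for XTH24, AFB3, DET2, RGL3 and PIF4.

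Growth bHLH factors, a list that holds promoters of growth and also the inhibitors IBH1 and PAR1, fell in 11 of 13 tested. In that list 1 rose, the median was −1.44, and 7 fell with a filter of 5 TPM. HBI1 (AT2G18300) read 10.2, 7.72 and 10.8 TPM in coronatine leaves, against 95.4, 89.0 and 88.8 TPM in mock leaves, BEE2 (AT4G36540) 3.10, 3.87 and 3.67 TPM in coronatine leaves, against 44.5, 36.7 and 40.2 TPM in mock leaves, and PIF7 (AT5G61270) 4.68, 3.91 and 4.66 TPM in coronatine leaves, against 33.8, 31.8 and 32.2 TPM in mock leaves. PIF4 (AT2G43010) was the 1 that rose, with 188, 202 and 210.1 TPM in coronatine leaves, against 129, 117 and 122 TPM in mock leaves, and without coronatine replicate 1 a second member was called higher. Growth-regulating factors of leaf size, listed together with GIF genes, ANT and TCP4, fell in 6 of 10, with GRF3 (AT2G36400) at 3.797 ± 0.538 TPM in coronatine leaves, against 19.1 ± 2.06 TPM in mock leaves, and in 9 on TPM as deposited alone. With a filter of 5 TPM, which leaves fewer genes tested, 2 fell. Of 23 cell cycle genes 12 fell and 4 rose, with a median of −0.75, and with that filter 3 fell. CYCD3;1 (AT4G34160), a cyclin that drives entry into division, fell to 3.26 ± 0.747 TPM in coronatine leaves, against 8.75 ± 2.90 TPM in mock leaves, and KRP1 (AT2G23430), an inhibitor of cyclin-dependent kinases, rose to 27.3 ± 2.73 TPM in coronatine leaves, against 13.2 ± 0.604 TPM in mock leaves. DNA replication genes mostly did not pass. Of 18 tested 0 rose and 1 fell, TSO2 (AT3G27060), a ribonucleotide reductase subunit, at 10.9 ± 0.849 TPM in coronatine leaves, against 35 ± 4.55 TPM in mock leaves, and 12 were lower on TPM as deposited alone. Without coronatine replicate 3 or mock replicate 1, 2 fell. MCM2 (AT1G44900), of the replicative helicase, read 5.61 ± 0.12 TPM in coronatine leaves, against 6.07 ± 0.842 TPM in mock leaves, and did not pass. Mean levels of this list lay between 0.743 and 14.2 TPM in coronatine leaves, and 1.44 and 35 TPM in mock leaves. By limma the log2 differences were −3.13 ± 0.09 for HBI1, −3.19 ± 0.14 for BEE2, −2.64 ± 0.10 for PIF7 and 0.70 ± 0.06 for PIF4 (± SE), with limma adjusted p of at most 4.1e-11, the coronatine and mock values being fully apart in each.

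Aquaporins split by gene. Of 17 tested 8 fell and 4 rose, with a median of −0.19, and 8 were higher on TMM-rescaled TPM alone. The plasma membrane channel PIP1;2 (AT2G45960) read 131, 142 and 114 TPM in coronatine leaves, against 506, 505 and 496 TPM in mock leaves, and PIP1;3 (AT1G01620) fell to 33.3 ± 5.51 TPM in coronatine leaves, against 168 ± 13.4 TPM in mock leaves. PIP2;3 (AT2G37180) rose to 100.5 ± 2.29 TPM in coronatine leaves, against 16.9 ± 1.05 TPM in mock leaves, but it is a close copy of PIP2;2 (AT2G37170), which fell to 60.3 ± 5.76 TPM in coronatine leaves, against 119.6 ± 10.3 TPM in mock leaves, so the split between the 2 is uncertain. TIP1;1 (AT2G36830), of the vacuole membrane, rose to 603 ± 32.9 TPM in coronatine leaves, against 182 ± 29.5 TPM in mock leaves. PIP1;2 differed by −1.96 ± 0.07 (log2, SE, limma adjusted p = 8.1e-18), without overlap between the groups.

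Wax and cuticle genes fell in 14 of 18 tested and rose in 3, with a median of −1.65. LACS1 (AT2G47240), an acyl-CoA synthetase of wax synthesis, fell to 9.39 ± 0.701 TPM in coronatine leaves, against 51.0 ± 10.1 TPM in mock leaves, KCS10 (AT2G26250) to 25.9 ± 0.795 TPM in coronatine leaves, against 128 ± 16.9 TPM in mock leaves, and the exporter gene ABCG11 (AT1G17840) to 14.2 ± 0.858 TPM in coronatine leaves, against 51.0 ± 8.82 TPM in mock leaves. The activator MYB96 (AT5G62470) fell to 4.41 ± 0.396 TPM in coronatine leaves, against 17.7 ± 3.58 TPM in mock leaves. CER3 (AT5G57800), of alkane formation, was the largest exception, with 398, 364 and 389 TPM in coronatine leaves, against 31.9, 26.0 and 24.7 TPM in mock leaves, and KCS1 (AT1G01120) rose to 115 ± 1.61 TPM in coronatine leaves, against 53.0 ± 7.36 TPM in mock leaves. Epidermis markers, 3 of which (KCS6, FDH, another name of KCS10, and CER5, another name of ABCG12) are also in the wax list, moved with these genes. Of the 6 markers 5 fell and 1 rose, and they summed to 501 to 554 TPM in coronatine leaves, against 658 to 826 TPM in mock leaves. The rise, of KCS6, was lost without coronatine replicate 3, mock replicate 2 or mock replicate 3, at log2 differences of 0.15 to 0.22. The defining factor genes ATML1 (AT4G21750) and PDF2 (AT4G04890) fell to 7.65 ± 0.635 TPM in coronatine leaves, against 32.3 ± 4.87 TPM in mock leaves, and to 6.86 ± 1.06 TPM in coronatine leaves, against 34.3 ± 5.36 TPM in mock leaves. Whether fewer epidermal transcripts of all kinds had a part in the wax result was not tested. CER3 differed by 3.76 ± 0.09 (log2, SE, limma adjusted p = 3.1e-21), without overlap between the groups.

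Markers of the other leaf cell types were divided. Of 11 guard cell markers 0 rose and 2 fell, summing to 204 to 230 TPM in coronatine leaves and 255 to 285 TPM in mock leaves, and on TPM as deposited alone 8 fell. Both calls, for OST1 and SPCH, rested on single libraries. OST1 was lost without mock replicate 3 (log2 difference −0.66), and SPCH without coronatine replicate 1 (−0.72) or mock replicate 2 (−0.64). Phloem markers rose in 2 and fell in 1 of 6 (549 to 580.3 TPM in coronatine leaves, 425 to 573 TPM in mock leaves), with 4 risen without mock replicate 2. SUC2 (AT1G22710), the companion cell sucrose carrier, fell to 70.9 ± 7.45 TPM in coronatine leaves, against 149.9 ± 18.9 TPM in mock leaves, and SWEET12 (AT5G23660), a sucrose exporter of phloem parenchyma, rose to 162 ± 8.22 TPM in coronatine leaves, against 42.6 ± 8.99 TPM in mock leaves. Xylem markers rose in 1 of 5 (36.0 to 42.0 TPM in coronatine leaves, 33.4 to 43.0 TPM in mock leaves), and VND7, which was not tested, stayed at or under 0.78 TPM. Trichome markers fell in 3 and rose in 1 of 4 (11.1 to 14.4 TPM in coronatine leaves, 20.96 to 31.9 TPM in mock leaves), and GL1, not tested, stayed at or under 0.77 TPM. Myrosin cell markers neither rose nor fell, at 6614 to 7630 TPM in coronatine leaves and 6835 to 8292 TPM in mock leaves, beside the glucosinolate breakdown genes.

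Regulators of chloroplast development fell at 3 h, when most genes of the photosynthetic apparatus did not pass. Of 12 tested 0 rose and 10 fell, with a median of −1.39. GLK2 (AT5G44190), an activator of chlorophyll and light-harvesting genes, read 38.6, 40.1 and 44.4 TPM in coronatine leaves, against 119, 126 and 124 TPM in mock leaves, and CIA2 (AT5G57180), of plastid import and ribosome genes, 3.03, 3.12 and 3.93 TPM in coronatine leaves, against 22.0, 22.4 and 19.9 TPM in mock leaves. The sigma factor gene SIG6 (AT2G36990) fell to 16.3 ± 2.06 TPM in coronatine leaves, against 52.5 ± 2.84 TPM in mock leaves. GLK1 (AT2G20570), the more abundant of the GLK pair, read 302, 292 and 334 TPM in coronatine leaves, against 276, 292 and 322 TPM in mock leaves, and its groups overlapped. Mesophyll markers fell in 1 of 5 (LHCB2.1) and rose in 0, with the summed levels given above, beside these chloroplast lists. On the log2 scale the differences were −1.56 ± 0.13 for GLK2 and −2.37 ± 0.11 for CIA2 (± SE), with limma adjusted p of at most 3.8e-11, and no coronatine value fell within the mock range.

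The share of chlorophyll synthesis genes that fell was near the 37.3% of all genes. Of 24 tested 10 fell and 1 rose, with a median of −0.51, close to the median of all genes, and 21 were lower on TPM as deposited alone. Without coronatine replicate 2, 2 rose. PORB (AT4G27440), the light-dependent reductase, read 404, 408 and 413 TPM in coronatine leaves, against 1239, 1366 and 1324 TPM in mock leaves. CHLH (AT5G13630), a magnesium chelatase subunit, fell to 257 ± 28.3 TPM in coronatine leaves, against 513 ± 22.7 TPM in mock leaves, and HEMA1 (AT1G58290), at the entry, read 254 ± 2.26 TPM in coronatine leaves, against 255 ± 6.37 TPM in mock leaves, and did not pass. Light-harvesting genes fell in 6 of 21 and rose in 1, with 18 lower on TPM as deposited alone. LHCB4.2 (AT3G08940) read 1080.4 ± 88.8 TPM in coronatine leaves, against 2842 ± 108 TPM in mock leaves, and fell, and the most abundant gene of all, LHCB1.3 (AT1G29930), read 24761 ± 1554 TPM in coronatine leaves, against 32482 ± 1931 TPM in mock leaves, and did not pass. Of the 10 genes with the highest mean TPM 1 rose, BGLU18, and 0 fell. LHCB1 and RBCS genes are near-identical within each family, so levels of single copies are uncertain. Of 30 nuclear photosystem and electron transport genes 2 rose (PSAE1 and PETE1) and 0 fell, while 14 were higher on TMM-rescaled TPM alone and 22 lower on TPM as deposited alone. PSAE1 was not called without mock replicate 1 (log2 difference 0.20). Of 22 Calvin cycle genes 4 fell and 1 rose, with PRK (AT1G32060), phosphoribulokinase, at 394, 455 and 365 TPM in coronatine leaves, against 854, 871 and 891 TPM in mock leaves. On TMM-rescaled TPM alone 10 of them rose, and on TPM as deposited alone 17 fell. Without coronatine replicate 1, 2 rose. Differences (log2) were −1.68 ± 0.08 for PORB and −1.11 ± 0.12 for PRK (± SE), with limma adjusted p of at most 5.5e-09, the coronatine and mock values being fully apart in each.

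Some genes of chlorophyll breakdown had risen. Of 14 tested 5 rose and 0 fell, with a median of −0.22, and on TMM-rescaled TPM alone 9 rose and on TPM as deposited alone 7 fell. PPH (AT5G13800), which removes the phytol tail, read 368, 333 and 336 TPM in coronatine leaves, against 57.6, 52.3 and 53.7 TPM in mock leaves, and CLH1 (AT1G19670), a chlorophyllase, 5191, 5051 and 5407 TPM in coronatine leaves, against 885, 822 and 885 TPM in mock leaves. PAO (AT3G44880), which opens the ring, read 159.7, 152 and 172 TPM in coronatine leaves, against 65.9, 66.7 and 66.1 TPM in mock leaves. SGR1 (AT4G22920), which removes magnesium and is the best known degreening gene, read 15.6, 12.3 and 13.5 TPM in coronatine leaves, against 18.8, 15.0 and 14.8 TPM in mock leaves with overlapping groups, and NYC1 (AT4G13250), a chlorophyll b reductase, 46.4 ± 4.94 TPM in coronatine leaves, against 73.8 ± 0.137 TPM in mock leaves. Neither passed at 3 h. At 12 h SGR1 averaged 177 ± 19.7 TPM in coronatine leaves and 18.8 ± 2.18 TPM in mock leaves, and it rose then (3.17 on the log2 scale), with an effect 3.39 above that at 3 h. Fitted log2 differences were 2.64 ± 0.08 for PPH, 2.59 ± 0.07 for CLH1 and 1.27 ± 0.06 for PAO (± SE), with limma adjusted p of at most 1.5e-16, without overlap between the groups.

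Senescence genes were divided at 3 h. Of 26 tested 11 rose and 11 fell, with a median of −0.43. NAC092 (AT5G39610), also called ORE1, rose to 10.6 ± 1.78 TPM in coronatine leaves, against 1.87 ± 0.644 TPM in mock leaves, NAC055 (AT3G15500) read 162, 141 and 148 TPM in coronatine leaves, against 15.6, 13.3 and 14.2 TPM in mock leaves, and NAC072 (AT4G27410) 256, 234 and 235 TPM in coronatine leaves, against 19.9, 11.43 and 14.8 TPM in mock leaves. Other age-linked regulators fell, namely NAP (AT1G69490) to 1.39 ± 0.329 TPM in coronatine leaves, against 11.3 ± 1.52 TPM in mock leaves, WRKY53 (AT4G23810) to 1.62 ± 0.413 TPM in coronatine leaves, against 15.4 ± 2.23 TPM in mock leaves, and ORS1 (AT3G29035) to 0.82 ± 0.3 TPM in coronatine leaves, against 4.48 ± 0.335 TPM in mock leaves. Of the nitrogen genes, ASN1 (AT3G47340), an asparagine synthetase, read 902, 915 and 998 TPM in coronatine leaves, against 32.2, 35.8 and 29.2 TPM in mock leaves, while GLN1;1 (AT5G37600), a glutamine synthetase, fell to 77.3 ± 4.52 TPM in coronatine leaves, against 301 ± 24.99 TPM in mock leaves. SAG12, the textbook marker of late senescence, stayed at or under 0.05 TPM in all 6 libraries. Autophagy genes mostly did not pass, with 1 of 24 risen and 4 fallen. ATG8A (AT4G21980), for example, read 42.6 ± 4.73 TPM in coronatine leaves, against 58.7 ± 9.31 TPM in mock leaves, and did not pass. The rise (ATG4A) and 3 of the falls (ATG8E, ATG13A and NBR1) were lost without single libraries, at log2 differences of 0.12 to 0.13 for ATG4A without coronatine replicate 1 or mock replicate 3. ATG8E passed only with all 6 libraries or without coronatine replicate 3 (otherwise −0.80 to −0.68). ATG13A was lost without coronatine replicate 2 or mock replicate 1 or 2 (−0.71 to −0.70), and NBR1 without coronatine replicate 2 or 3 or mock replicate 1 or 3 (−0.78 to −0.68). ATG10 (AT3G07525), the other fall, read 4.02 ± 0.916 TPM in coronatine leaves, against 9.67 ± 0.707 TPM in mock leaves. On TMM-rescaled TPM alone 9 rose, and on TPM as deposited alone 18 fell. limma gave log2 differences of 3.30 ± 0.15 for NAC055, 3.92 ± 0.14 for NAC072 and 4.82 ± 0.24 for ASN1 (± SE), with limma adjusted p of at most 1.6e-15, and in each the groups did not overlap.

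Genes of salicylate, the hormone that opposes jasmonate, were divided. Of 20 tested 10 fell and 4 rose, with a median of −0.99. In so few genes these counts are near the 37.3% and 14.6% of all genes, so the genes below are described singly. ICS1 (AT1G74710), which makes salicylate, read 11.2, 12.3 and 16.8 TPM in coronatine leaves, against 47.5, 35.1 and 38.3 TPM in mock leaves, and EDS1 (AT3G48090) and PAD4 (AT3G52430), its upstream immune partners, fell to 3.00 ± 0.526 TPM in coronatine leaves, against 17.9 ± 2.28 TPM in mock leaves, and to 4.31 ± 0.946 TPM in coronatine leaves, against 20.7 ± 3.17 TPM in mock leaves. EDS5 (AT4G39030), which exports the precursor from the plastid, read 102, 100.3 and 101 TPM in coronatine leaves, against 20.3, 14.5 and 15.4 TPM in mock leaves. GRX480 (AT1G28480), a glutaredoxin that restrains jasmonate genes, read 79.96, 75.8 and 104 TPM in coronatine leaves, against 8.49, 4.25 and 6.75 TPM in mock leaves, and WRKY62 (AT5G01900) rose to 84.5 ± 10.1 TPM in coronatine leaves, against 8.80 ± 2.35 TPM in mock leaves. PR2 (AT3G57260) rose to 555 ± 69.0 TPM in coronatine leaves, against 179.7 ± 61.9 TPM in mock leaves, while PR1 (AT2G14610) read 186 ± 64.2 TPM in coronatine leaves, against 398 ± 146 TPM in mock leaves, and did not pass. These differences, as log2 values, were −1.52 ± 0.19 for ICS1, 2.54 ± 0.12 for EDS5 and 3.57 ± 0.22 for GRX480 (± SE), with limma adjusted p of at most 5.0e-08, and no coronatine value fell within the mock range.

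Abscisic acid genes rose in 5 and fell in 6 of 16 tested, or rose in 8 on TMM-rescaled TPM alone, with ABI1 (AT4G26080), a phosphatase of its receptor complex, at 201, 193 and 202 TPM in coronatine leaves, against 30.5, 24.7 and 28.5 TPM in mock leaves. Of the 5 rises, that of NCED3 was lost without 4 of the 6 libraries singly, all but coronatine replicate 3 and mock replicate 3 (log2 differences 0.22 to 0.28). With a filter of 5 TPM 3 rose and 3 fell. The circadian clock list had 3 of 17 risen and 10 fallen, with LUX (AT3G46640) at 42.7, 39.0 and 45.4 TPM in coronatine leaves, against 11.6, 12.8 and 13.0 TPM in mock leaves, and TOC1 (AT5G61380) fallen to 8.12 ± 1.15 TPM in coronatine leaves, against 19.5 ± 2.097 TPM in mock leaves. Touch and wounding genes, listed as a sign of handling, were divided, with 4 of 10 risen and 5 fallen. CML39 (AT1G76640), a calmodulin-like gene that RefSeq lists under its locus name and that the rule for the 25 largest rises therefore left out, read 647, 611 and 703 TPM in coronatine leaves, against 2.77, 1.90 and 3.13 TPM in mock leaves, and ZAT10 (AT1G27730) rose to 416 ± 17.0 TPM in coronatine leaves, against 37.7 ± 5.32 TPM in mock leaves, while TCH3 (AT2G41100) fell to 120.3 ± 17.0 TPM in coronatine leaves, against 321 ± 32.2 TPM in mock leaves, and TCH4 (AT5G57560), also in the wall list as XTH22, to 4.11 ± 0.473 TPM in coronatine leaves, against 13.9 ± 1.90 TPM in mock leaves. TCH1 (AT5G37780) read 109 ± 13.6 TPM in coronatine leaves, against 113 ± 5.69 TPM in mock leaves, and did not pass. The contrasts came to log2 values of 2.79 ± 0.07 for ABI1, 1.69 ± 0.09 for LUX and 7.52 ± 0.28 for CML39 (± SE), with limma adjusted p of at most 7.9e-15, the coronatine and mock values being fully apart in each.

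The place of 3 h in time was examined by the effect of coronatine at 1 and 12 h on the same 17480 genes. At 1 h 1780 genes were higher (10.2%) and 2657 lower (15.2%), and at 12 h 4148 were higher (23.7%) and 7376 lower (42.2%). Of the 2552 genes that rose at 3 h, 1531 were already higher at 1 h, 998 were not called then and 23 were lower. At 12 h 2047 of them were higher, 390 were not called and 115 were lower. Of the 6520 that fell at 3 h, 2212 were already lower at 1 h and 4275 were not called, and at 12 h 4713 were lower, 1518 not called and 289 higher. These comparisons use separate coronatine and mock libraries at each time but 1 shared estimate of spread. By the test of the difference itself, the effect at 3 h was above that at 1 h in 2037 genes (11.7%) and below it in 4770 (27.3%).

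Several groups had more members called lower at 12 h than at 3 h. Photosystem and electron transport genes were lower at 12 h in 20 of 30, Calvin cycle genes in 20 of 22, chlorophyll synthesis genes in 20 of 24 and DNA replication genes in 18 of 18, against 42.2% of all genes. The effect at 12 h was below that at 3 h in 24, 20, 20 and 17 of these genes, in that order, against 31.8% of all genes. RCA (AT2G39730), Rubisco activase, read 2351 ± 300.3 TPM in coronatine leaves, against 3643 ± 117 TPM in mock leaves at 3 h, and at 12 h 439 ± 49.0 TPM in coronatine leaves and 3692 ± 64.0 TPM in mock leaves. Mock levels of other photosynthesis genes moved between the times. Mock means at 3 and 12 h were 17893 and 831 TPM for LHCB1.5, 8121 and 878 TPM for LHCA1, and 714 and 1451 TPM for CA2. They differed less for RBCS1A, at 16821 and 18960 TPM. Whether time of day had a part in the changes of effect was not tested. Autophagy genes were higher at 12 h in 19 of 24 (23.7% of all genes), with the effect above that at 3 h in 22 (30.3% of all genes). ATG8A then averaged 219 ± 12.8 TPM in coronatine leaves and 52.7 ± 3.26 TPM in mock leaves. Senescence genes had an effect at 12 h above that at 3 h in 20 of 26 and below it in 0.

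**Figure D5:**
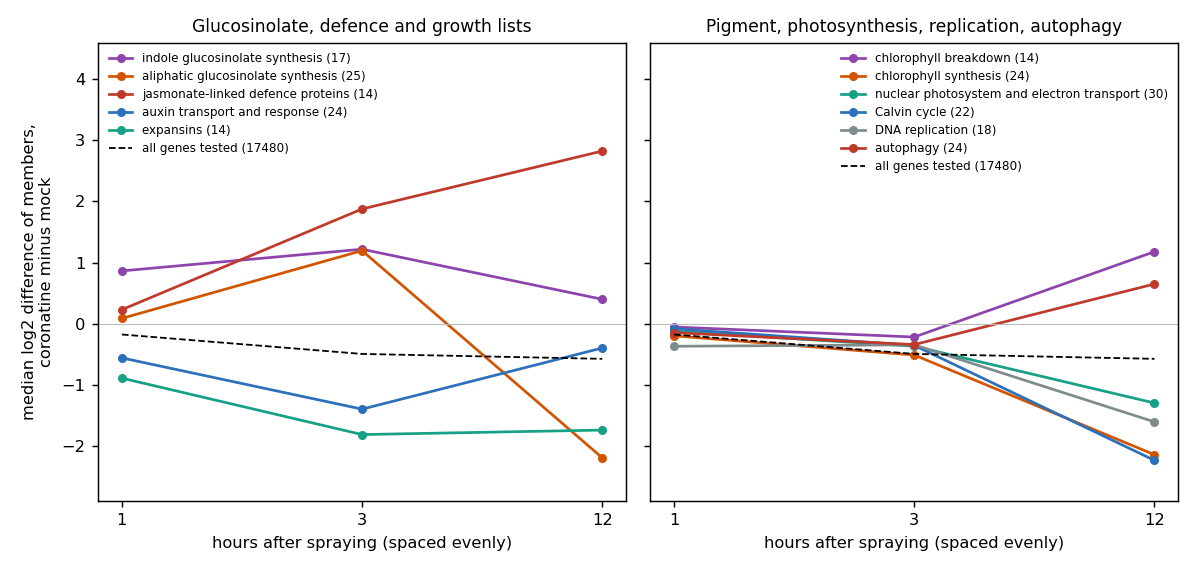
Lines join the median log2 difference, coronatine minus mock, of the tested members of each list at 1, 3 and 12 h (evenly spaced), with the number of members in brackets and all 17480 genes as a dashed line. Glucosinolate and defence lists stand above, and auxin and expansin lists below, the dashed line at 3 h, and the pigment, photosynthesis, replication and autophagy lists stay near it until 12 h.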

How the data were processed

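Messenger RNA of whole leaves was sequenced in 30 libraries of 10 groups. The deposited TPM matrix, 1 value per gene and library, was used as it stands. No sample column was left unmapped. The submitters' processing notes name RSEM 1.3.3, DESeq2 3.12 and TAIR10, without their roles. Per the file headers, the authors' deposited table for 3 h gives a base mean (a normalized signal), a log2 fold change with its standard error, a p-value and an adjusted p-value, and it served only for comparison.

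Values were fitted as log2(TPM + 1) with limma 3.58.1 in R 4.3.3 (mean-variance trend, 10 group means over 30 libraries, Benjamini-Hochberg adjustment over 17480 genes, 0.05), once on TPM as deposited and once on TPM rescaled by TMM factors, which were 0.731 to 0.762 in the coronatine and 1.06 to 1.13 in the mock libraries. All libraries share 1 estimate of spread. The fit was tested on simulated data without a shift of the median gene, so that test of the fit does not bear on the shift seen here.

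The 44 gene lists hold 711 genes, of which 657 were tested. The members and lists were chosen with earlier results of these data known. The 13 JAZ loci were added to them. Named genes are the 25 largest rises and falls with at least 10 TPM in the higher group, no overlap and a RefSeq symbol, list members, the 10 most abundant genes, and the 5 each way whose effect changed most between 3 and 12 h. Promoters are RefSeq TAIR10.1, and 17265 of 17265 loci compared matched the files' loci by chromosome and overlapping coordinates. Alternatives were other scalings, filters, pseudocounts, models, a replicate block, leaving out each library, and the authors' table.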

Additional observations from a re-analysis of the deposited data

Results flagged for a closer look

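The effect of coronatine differed between times by a test of the difference itself. It was higher at 12 h than at 3 h in 5292 genes (30.3%) and lower in 5566 (31.8%), and higher at 3 h than at 1 h in 2037 genes (11.7%) and lower in 4770 (27.3%). The 5 genes with the largest increase and the 5 with the largest decrease between 3 and 12 h follow.

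GH3.3 (AT2G23170), an enzyme that conjugates auxin to amino acids, averaged 9.34 ± 0.75 TPM in coronatine leaves and 10.3 ± 1.60 TPM in mock leaves at 3 h, and at 12 h 337 ± 40.6 TPM in coronatine leaves and 5.99 ± 0.306 TPM in mock leaves, a change in effect of 5.71 ± 0.18 on the log2 scale (SE, limma adjusted p = 5.6e-18). UGT73B2 (AT4G34135), a glycosyltransferase, averaged 0.913 ± 0.339 TPM in coronatine leaves and 4.01 ± 0.734 TPM in mock leaves at 3 h, and at 12 h 218 ± 37.9 TPM in coronatine leaves and 19.3 ± 1.55 TPM in mock leaves, a change in effect of 4.81 ± 0.17 on the log2 scale (SE, limma adjusted p = 2.9e-17). UGT73B3 (AT4G34131), its close relative, averaged 0.783 ± 0.135 TPM in coronatine leaves and 2.02 ± 0.759 TPM in mock leaves at 3 h, and at 12 h 44.7 ± 4.97 TPM in coronatine leaves and 2.203 ± 0.362 TPM in mock leaves, a change in effect of 4.57 ± 0.22 on the log2 scale (SE, limma adjusted p = 5.9e-15). HAT2 (AT5G47370), an auxin-responsive homeodomain factor, averaged 1.67 ± 0.348 TPM in coronatine leaves and 20.4 ± 1.71 TPM in mock leaves at 3 h, and at 12 h 21.2 ± 0.995 TPM in coronatine leaves and 6.62 ± 0.111 TPM in mock leaves, a change in effect of 4.55 ± 0.11 on the log2 scale (SE, limma adjusted p = 1.6e-19). BGAL4 (AT5G56870), a beta-galactosidase, averaged 34.7 ± 5.32 TPM in coronatine leaves and 28.6 ± 4.101 TPM in mock leaves at 3 h, and at 12 h 225 ± 18.1 TPM in coronatine leaves and 7.18 ± 1.23 TPM in mock leaves, a change in effect of 4.53 ± 0.19 on the log2 scale (SE, limma adjusted p = 6.7e-16).

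IPMI_SSU3 (AT3G58990), an isomerase subunit of methionine chain elongation, averaged 93.4 ± 4.73 TPM in coronatine leaves and 35.8 ± 7.24 TPM in mock leaves at 3 h, and at 12 h 5.77 ± 3.22 TPM in coronatine leaves and 112 ± 13.1 TPM in mock leaves, a change in effect of −5.52 ± 0.40 on the log2 scale (SE, limma adjusted p = 1.0e-11). LTL1 (AT3G04290), a lipase-like gene, averaged 68.2 ± 7.82 TPM in coronatine leaves and 163 ± 18.7 TPM in mock leaves at 3 h, and at 12 h 0.857 ± 0.326 TPM in coronatine leaves and 155 ± 16.0 TPM in mock leaves, a change in effect of −5.16 ± 0.16 on the log2 scale (SE, limma adjusted p = 3.4e-18). AACT1 (AT5G61160), an agmatine coumaroyltransferase, averaged 176 ± 26.2 TPM in coronatine leaves and 602 ± 14.6 TPM in mock leaves at 3 h, and at 12 h 4.38 ± 5.35 TPM in coronatine leaves and 360.3 ± 68.3 TPM in mock leaves, a change in effect of −4.77 ± 0.53 on the log2 scale (SE, limma adjusted p = 1.9e-08). CA2 (AT5G14740), a carbonic anhydrase, averaged 353 ± 22.1 TPM in coronatine leaves and 714 ± 23.3 TPM in mock leaves at 3 h, and at 12 h 28.8 ± 6.91 TPM in coronatine leaves and 1451 ± 46.4 TPM in mock leaves, a change in effect of −4.62 ± 0.14 on the log2 scale (SE, limma adjusted p = 2.5e-18). CYP79F1 (AT1G16410), the entry enzyme of aliphatic glucosinolates, averaged 122 ± 6.39 TPM in coronatine leaves and 43.3 ± 9.53 TPM in mock leaves at 3 h, and at 12 h 13.7 ± 5.44 TPM in coronatine leaves and 115 ± 10.4 TPM in mock leaves, a change in effect of −4.52 ± 0.45 on the log2 scale (SE, limma adjusted p = 2.7e-09).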

How the results depend on the processing

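The number of genes that rose (2552) moved to 6486 on TMM-rescaled TPM alone, 5560 with quantile normalization and 6101 in the authors' deposited table, and the number that fell (6520) moved to 12251 on TPM as deposited alone. The effect at 3 h was above that at 1 h in 4829 genes on TMM-rescaled TPM alone (2037 under both scalings) and below it in 8617 on TPM as deposited alone (4770 under both). Leaving out 1 library at a time gave 2396 to 2547 risers and 6243 to 6333 fallers, 4945 to 5302 genes with a higher and 5408 to 5523 with a lower effect at 12 h than at 3 h, and 1857 to 2059 with a higher and 4514 to 4689 with a lower effect at 3 h than at 1 h. Same-numbered libraries had correlations of their deviations of 0.122, 0.148 and −0.057, against −0.172 to 0.065 for libraries of other numbers. These values do not settle whether the numbers mark pairs. The labels give replicate numbers and no pairing, so the numbers were not taken as pairs. With the replicate block 2541 genes rose and 6499 fell, the effect at 12 h was higher in 5278 and lower in 5541, and that at 3 h was higher than at 1 h in 2027 and lower in 4763. Of 712 named genes tested 458 were called, 415 of them under every alternative that tested them, and none reversed. A filter of 5 TPM tested 398 of the 458. TMM-rescaled TPM alone called 118 of the other 254 higher, and TPM as deposited alone 155 lower. By list, counts not given with the list moved by over 1.5 times as follows. On TMM-rescaled TPM alone the risers were 5 tyrosine and tocopherol genes, 2 expansins, 5 auxin, 3 brassinosteroid, 2 growth bHLH, 1 growth-regulating factor, 5 DNA replication, 7 chlorophyll synthesis, 4 light-harvesting and 2 chloroplast regulator genes, and 2 mesophyll, 4 guard cell, 5 phloem, 4 xylem and 3 myrosin cell markers. On TPM as deposited alone 19 cell cycle genes, 4 cellulose genes, 2 aliphatic glucosinolate genes, 1 defence protein gene and 3 mesophyll markers fell. Quantile normalization raised 10 of 18 DNA replication, 8 chlorophyll breakdown, 7 cellulose, 7 autophagy, 5 camalexin and 4 auxin genes and 4 guard cell and 4 xylem markers. It lowered 25 of 30 photosystem, 22 of 24 chlorophyll synthesis, 18 of 22 Calvin cycle, 16 of 21 light-harvesting, 8 autophagy, 7 sulfate, 7 terpene, 6 tryptophan, 5 jasmonate synthesis, 3 cellulose and 3 chlorophyll breakdown genes and 3 mesophyll markers, and its other counts that moved so far were of at most 2 members. List counts in the authors' deposited table lay within 3 genes of those on TMM-rescaled TPM alone. The cause was not tested. TPM keep no depth, so the precision of low values is unknown.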
